A study of Mus musculus with 21 samples.

Results

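The genes described are 10 ion transporters and channels of the colonic surface and crypt epithelium, chosen by their symbols from the 24062 genes of the count table. All 10 passed the filter on low counts, which left 15936 genes. They are the chloride and sulfate exchangers Slc26a3 and Slc26a2, the sodium-proton exchangers Slc9a2 and Slc9a3, and the proton-potassium pump Atp12a. The others are the subunits Scnn1a, Scnn1b and Scnn1g of the epithelial sodium channel (ENaC), the chloride channel Cftr and the sodium-potassium-chloride cotransporter Slc12a2 (NKCC1). RNA from 21 mouse colon samples of the strain C57BL/6 was sequenced after removal of ribosomal RNA, with 3 libraries in each of 7 groups. The groups were normal colon and tumours of wild-type males, of males with the App NL-G-F knock-in and of wild-type females, and normal colon of knock-in females. App NL-G-F places a humanised amyloid-beta sequence with Alzheimer's disease mutations in the mouse App gene, under its own promoter. Every tumour sample is labelled as treated with AOM/DSS, azoxymethane (a colon carcinogen) followed by dextran sulfate sodium (a colitis-inducing agent), and every normal sample as not treated. The series' design text also speaks of normal tissue next to tumours, and the labels do not say which normal samples those were. Tumour and treatment therefore cannot be told apart here. Age, doses and the part of the colon sampled are not given in the sources used here. Nothing says that the libraries of a group came from separate animals, so p-values measure only the spread between these samples.

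The colon reclaims sodium chloride and water through apical transporters. Slc26a3 (DRA) takes up chloride in exchange for bicarbonate, while Slc9a2 (NHE2) and Slc9a3 (NHE3) take up sodium in exchange for protons, so that paired exchangers move salt without net charge. ENaC is a channel of alpha, beta and gamma subunits that takes up sodium alone in the distal colon, under the control of aldosterone. Atp12a pumps protons out and potassium in across the apical membrane. Secretion runs the other way: Slc12a2 loads chloride across the basolateral membrane and Cftr releases it at the apical one. In normal colon the absorptive proteins are mainly products of differentiated surface cells, whereas Cftr and Slc12a2 are strongest in the crypt.

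Library totals ranged from 3414123 to 26174008 counts, and the lowest count of any of these genes in any library was 8. Levels below are CPM, which are counts over the library total after trimmed-mean scaling. Genes of the general epithelium list (Epcam, Cdh1, keratins and others) summed to between 6016 and 11010 CPM in all libraries. App ranged from 450 to 1004 CPM, but gene counts cannot separate the mutant sequence, so the genotype labels were not checked by it. No 2 libraries of a group held identical counts. In the knock-in female normal group a column header occurs in duplicate, so its values are given without tying those libraries to a sample.

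Most of the absorptive genes and Cftr were lower in the tumours of wild-type mice, while Slc12a2 did not pass the test in either direction and Slc9a3 was above normal, also without passing. In wild-type males 7 of the 10 genes fell and none rose at an adjusted p under 0.05 (edgeR quasi-likelihood test, Benjamini-Hochberg over all genes tested), where 19.3% of all genes fell and 35.7% changed in either direction. In wild-type females 8 fell and none rose, against 24.0% of all genes falling and 49.1% changing. Knock-in male tumours showed 4 lower genes and none higher, against 9.97% and 20.4%. The median log2 fold change of the 10 genes was -2.36 in wild-type males, -2.65 in wild-type females and -0.73 in knock-in males, where the median over all genes tested was 0.005, 0.008 and 0.007. The plot of levels by library shows where the tumour and normal libraries separate.

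**Figure D1:**
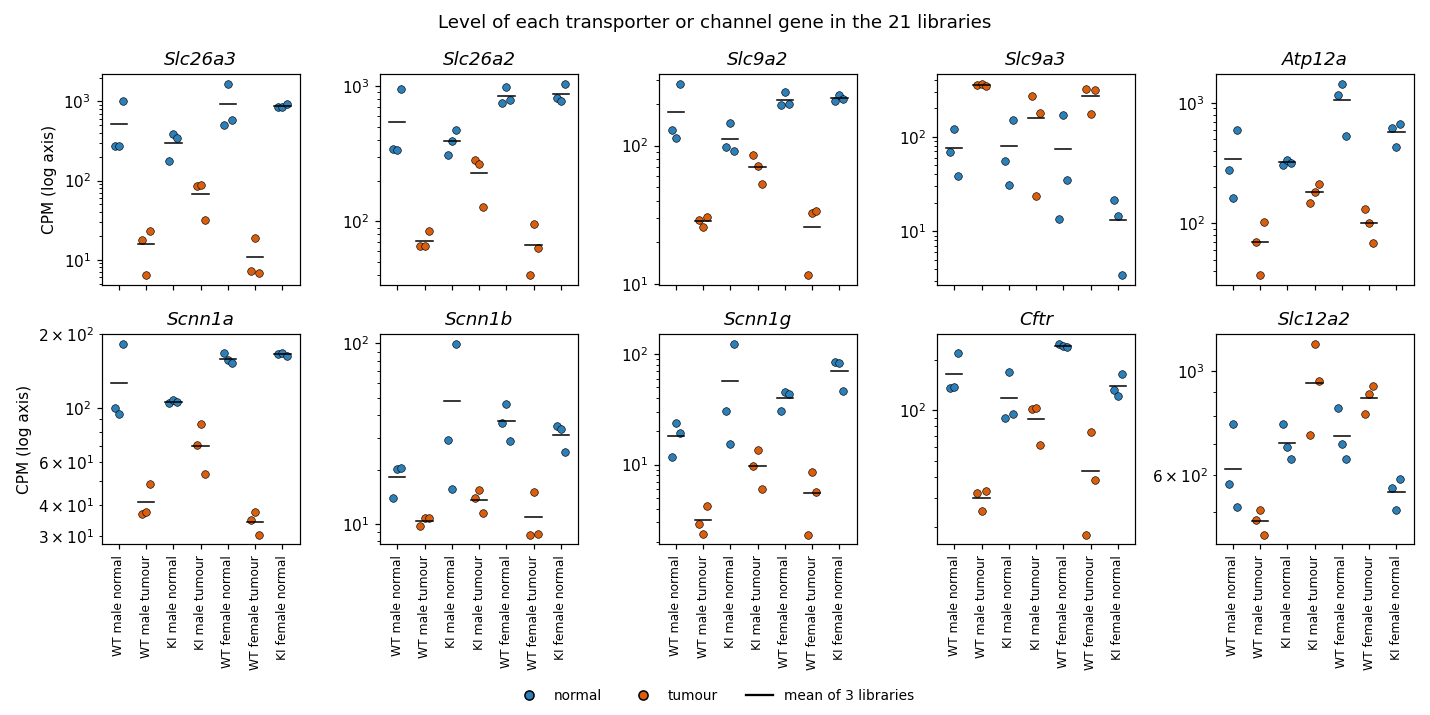
CPM (log axis) of each of the 10 genes in the 21 libraries; points are libraries, blue for normal colon and orange for tumour, and bars are means of 3 libraries. For Slc26a3, all 9 tumour libraries (6.40 to 86.9 CPM) lie below all 12 normal libraries (176 to 1674.5 CPM), whereas those of Slc12a2 (448 to 1143 and 506 to 835 CPM) overlap.

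RefSeq promoters (250 bases before the start, build GRCm38.p6) were matched for 5 of the 10 genes. The pair shown belongs to the exchanger with the largest fall in tumours and to the one whose tumour levels were above normal in wild-type mice. Capitals mark TATAAA, the TATA box motif, searched on both strands. The Slc26a3 window is chr12:31437969-31438218 and the Slc9a3 window chr13:74121163-74121412, both on the plus strand. The Slc26a3 window lies inside the GENCODE span of its gene (chr12:31390871-31473917), so the RefSeq start used here is not the start of that span. The Slc9a3 window ends shortly before the span of its gene, which starts at 74121457.
Slc26a3: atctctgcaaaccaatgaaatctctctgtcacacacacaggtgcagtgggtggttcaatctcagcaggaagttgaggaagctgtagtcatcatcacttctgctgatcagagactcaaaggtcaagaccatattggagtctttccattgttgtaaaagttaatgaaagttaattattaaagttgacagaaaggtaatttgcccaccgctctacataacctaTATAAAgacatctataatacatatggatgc
Slc9a3: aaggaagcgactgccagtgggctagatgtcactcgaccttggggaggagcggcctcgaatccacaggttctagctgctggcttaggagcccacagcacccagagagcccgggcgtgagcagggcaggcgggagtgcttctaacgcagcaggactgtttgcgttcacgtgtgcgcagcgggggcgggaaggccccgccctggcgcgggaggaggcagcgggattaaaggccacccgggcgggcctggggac
TATAAA occurs once in the Slc26a3 window, starting 30 bases before the start, and not in the windows of Slc9a3, Cftr, Scnn1b or Scnn1g. Of 32851 RefSeq promoters of this length, 12.4% hold it. The Slc26a3 window is 38.8% G or C and the Slc9a3 window 67.6%. CAAAGTCCA (an Hnf4 site, in 0.384% of promoters), CTTTGAT (a Tcf site, 3.21%) and AGAACA (a steroid receptor half-site, 16.1%) did not occur in any of these 5 windows on either strand. Only these exact strings were searched, so other forms of the sites were not covered. A match describes letters only, and so does its absence.

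Slc26a3, the apical chloride-bicarbonate exchanger lost in congenital chloride diarrhoea, lies at chr12:31390871-31473917 (GRCm38, GENCODE M21, plus strand) with 6369 exonic bases. Its levels were 271, 273 and 1011 CPM in wild-type male normal colon and 18, 6.40 and 23.4 CPM in wild-type male tumours. Replicate 3 of the normal group was the high library, and the groups did not overlap. The fall was 30.8-fold (log2 fold change -4.95, SE 0.735, edgeR adjusted p = 0.000158). Wild-type females had 497, 1674.5 and 580 CPM in normal colon and 7.20, 18.6 and 6.74 CPM in tumours, again without overlap. Here the fall was 84.3-fold (log2 fold change -6.40, SE 0.789, edgeR adjusted p = 1.08e-05), the largest of the 10 genes in any comparison of tumour with normal colon. Knock-in males had 176, 383 and 342 CPM in normal colon and 84.8, 86.9 and 32.1 CPM in tumours. These also did not overlap, and the fall was 4.41-fold (log2 fold change -2.14, SE 0.639, edgeR adjusted p = 0.0292). By group mean, knock-in and wild-type female normal colon (876 and 917 CPM) overlapped with each other and with wild-type male normal colon (518 CPM). Below the male normal groups the order was knock-in male tumours (67.9 CPM), wild-type male tumours (15.9 CPM) and wild-type female tumours (10.9 CPM), and the last 2 overlapped. In bulk tissue, fewer cells of a type and less RNA per cell cannot be told apart.

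Slc26a2, a sulfate transporter of the same family (chr18:61192919-61211612, minus strand), was also lower in tumours, by smaller amounts. Normal libraries of wild-type males had 341, 340 and 960 CPM and their tumours 65.8, 65.5 and 84.6 CPM. The wild-type female values were 756, 979 and 794 CPM against 40.1, 95.9 and 63.5 CPM. Neither pair of groups overlapped, and both falls passed the test at 7.58-fold in males (edgeR adjusted p = 8.39e-05) and 12.7-fold in females (edgeR adjusted p = 4.75e-06). Knock-in males had 311, 391 and 471 CPM in normal colon and 286, 265 and 127 CPM in tumours, without overlap but with an edgeR adjusted p of 0.153. Since the 2 exchangers fell by unequal amounts, the ratio of Slc26a3 to Slc26a2 (CPM per kilobase of exon) was between 0.19 and 0.636 in the 9 tumour libraries and between 1.1 and 3.32 in the 12 normal ones.

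The sodium-proton exchangers moved apart. Slc9a2 (chr1:40680574-40769273, plus strand) was at 130, 113 and 281 CPM in wild-type male normal colon and 29.0, 25.6 and 30.3 CPM in tumours. Wild-type female normal colon had 197, 243 and 201 CPM and tumours 11.5, 32.3 and 33.8 CPM. Tumours were below normal colon without overlap in both sexes, and Slc9a2 fell 6.12-fold in males (edgeR adjusted p = 7.29e-05) and 8.22-fold in females (edgeR adjusted p = 6.64e-06). In knock-in males the levels were 97.0, 146 and 91.9 CPM against 86.0, 70.9 and 52.5 CPM. Those groups did not overlap either, and the edgeR estimate was -0.68 on the log2 scale (SE 0.343, adjusted p = 0.167).

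Slc9a3 (chr13:74121457-74169442, plus strand), the main sodium-proton exchanger of sodium absorption in the gut, was higher in every wild-type tumour library than in every normal library of the same sex. Wild-type males had 68.3, 122 and 38.3 CPM in normal colon and 350, 364 and 343 CPM in tumours. Wild-type females had 13.4, 172 and 35.0 CPM in normal colon and 317, 173 and 314 CPM in tumours. Normal replicate 2 and tumour replicate 2 of the females nearly met, while the male tumours lay within a narrow range far above the normal libraries. Neither difference passed the edgeR test (log2 fold change 2.21, SE 0.951, adjusted p = 0.0842 in males and 1.88, SE 0.947, adjusted p = 0.113 in females). With DESeq2 the adjusted p in males was 0.0391, and with limma voom it was 0.00656 in males and 0.000313 in females. Without replicate 2 of the female normal group, the edgeR value in females was 3.51 on the log2 scale with an adjusted p of 0.014. Knock-in male tumours held 270.5, 23.6 and 178 CPM against 55.8, 30.6 and 151 CPM in normal colon, so that those groups overlapped (adjusted p = 0.465). Knock-in female normal colon was lowest, at 21.4, 14.5 and 3.45 CPM. The ratio of Slc9a3 to Slc9a2 per kilobase was 14.3 to 18.1 in wild-type male tumours and 6.82 to 34.9 in wild-type female tumours. It was at most 2.09 in any normal library. Knock-in male tumours, at 0.423 to 4.29, overlapped with normal colon in this ratio.

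Slc9a3 varied widely between libraries of some groups, with a coefficient of variation of 117% in wild-type female and 80.3% in knock-in male normal colon, but 3.14% in wild-type male tumours. Position along the colon is not labelled, so 5 posterior Hox genes (Hoxd11, Hoxd12, Hoxd13, Hoxa13 and Hoxb13), whose products mark the distal hindgut, were summed beside it. In 6 of the 7 groups the library lowest in these Hox genes was the one highest in Slc9a3, the exception being wild-type male tumours. The Hox sum in wild-type female tumours was 124, 365 and 182 CPM for replicates 1 to 3, beside Slc9a3 levels of 317, 173 and 314 CPM. In knock-in male tumours it was 117, 371 and 319 CPM, beside 270.5, 23.6 and 178 CPM. Over the 21 libraries Pearson's r of the log2 values was -0.68, and over deviations from the group means it was -0.61. The libraries share tissue composition and scaling, so both are descriptions. The same within-group r lay between 0.08 and 0.44 for the other 9 genes. The library highest in the Hox sum was also the one highest in Scnn1a in 6 groups and in Cftr in 5. In knock-in male normal colon the Hox sums were nearly level, at 397, 396 and 382 CPM. The comparison with the Hox genes was chosen after the values were seen, and the part of sampling position in the Slc9a3 differences was not tested.

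**Figure D2:**
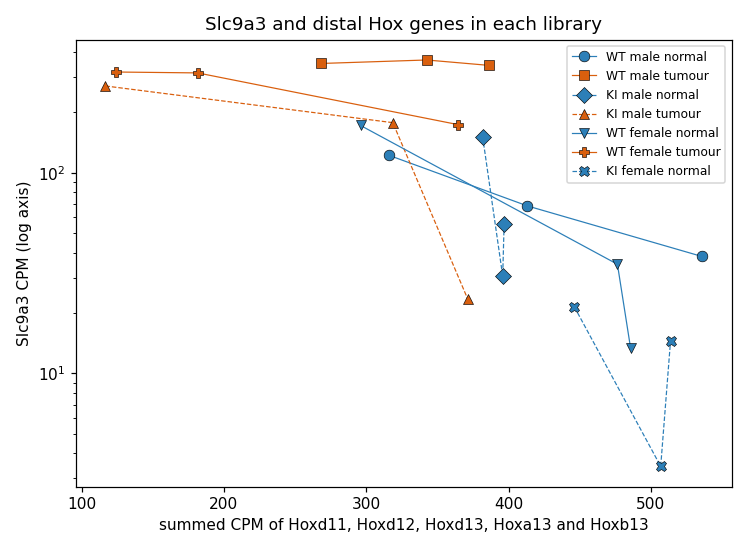
Slc9a3 (CPM, log axis) against the summed CPM of 5 posterior Hox genes; each point is a library, joined within its group, with blue for normal colon, orange for tumours and broken lines for knock-in groups. Slc9a3 was highest in the library with the lowest Hox sum in 6 of 7 groups, and the 3 wild-type male tumours lie level at 343 to 364 CPM.

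Atp12a, the apical pump of the distal colon (chr14:56365068-56388550, plus strand), had the highest mean per kilobase of the 10 genes in every normal group. These means were 261 ± 116 CPM per kilobase in wild-type females, 143 ± 30.8 in knock-in females, 86.1 ± 56.2 in wild-type males and 80.0 ± 3.43 in knock-in males (SD, n = 3). Slc26a3 was close behind in knock-in females (137.5) and wild-type males (81.4). Levels of Atp12a were 279, 161 and 597 CPM in wild-type male normal colon and 69.7, 37.3 and 102 CPM in tumours. Wild-type females had 1169, 1445 and 533 CPM in normal colon and 133, 101 and 68.3 CPM in tumours. Every tumour library was below every normal library of its sex, and the falls were 4.89-fold (edgeR adjusted p = 0.00142) and 10.4-fold (edgeR adjusted p = 3.25e-05). Knock-in males had 308, 336 and 320 CPM against 148, 184 and 212 CPM, without overlap and with an edgeR adjusted p of 0.191. Of its exonic bases, 557 overlap the antisense gene Gm10873, and whether counting used strand is not given in the sources used here.

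The estimated falls of the 3 ENaC subunits differed in size, but a difference between subunits was not tested. In wild-type males the ratio of Scnn1b to Scnn1a per kilobase was 0.174 to 0.336 in normal colon and 0.345 to 0.45 in tumours. That of Scnn1g to Scnn1a was 0.145 to 0.351 and 0.0857 to 0.119, and neither ratio overlapped between normal colon and tumours. In wild-type females and in knock-in males both ratios overlapped. Scnn1a, the alpha subunit (chr6:125320659-125344943, plus strand), was at 99.8, 94.4 and 183 CPM in wild-type male normal colon and 36.8, 37.5 and 49.0 CPM in tumours. Wild-type female normal colon had 168, 157 and 153 CPM and tumours 34.9, 37.7 and 30.2 CPM. Knock-in males had 104, 107 and 105 CPM in normal colon and 70.3, 86.2 and 53.7 CPM in tumours. None of these pairs of groups overlapped, and Scnn1a fell in all 3 comparisons: 3.04-fold (edgeR adjusted p = 2.47e-05), 4.64-fold (3.84e-07) and 1.51-fold (0.044). The call in knock-in males was lost in most of the fits that left out a single library of the compared groups.

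Scnn1b and Scnn1g, the beta and gamma subunits, are neighbours on one chromosome (chr7:121865038-121918514 and chr7:121734479-121768475, both on the plus strand). Scnn1g fell in all 3 comparisons. It was at 11.7, 24.0 and 19.2 CPM in wild-type male normal colon and 2.88, 2.33 and 4.24 CPM in tumours, a 5.52-fold difference without overlap (edgeR adjusted p = 0.0124). Wild-type females had 30.6, 45.6 and 43.4 CPM against 2.31, 8.66 and 5.65 CPM, also without overlap (7.07-fold, edgeR adjusted p = 0.00226). Scnn1b was at 14.0, 20.2 and 20.3 CPM in wild-type male normal colon and 9.72, 10.8 and 10.8 CPM in tumours, a smaller gap that did not pass the test (log2 fold change -0.80, SE 0.477, adjusted p = 0.204). In wild-type females it fell from 36.3, 46.3 and 28.6 CPM to 8.69, 15.1 and 8.81 CPM (3.41-fold, edgeR adjusted p = 0.00551).

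In knock-in males the calls on these 2 subunits depended on a single library. Normal replicate 3 had 99.8 CPM of Scnn1b and 125 CPM of Scnn1g, where replicates 1 and 2 had 29.1 and 15.6 CPM of Scnn1b and 30.6 and 15.3 CPM of Scnn1g. That library stood apart in both genes, while its Scnn1a level was level with its group. Tumours had 14.0, 15.4 and 11.5 CPM of Scnn1b and 9.66, 13.7 and 6.07 CPM of Scnn1g, below all normal libraries. The falls were 3.52-fold for Scnn1b (edgeR adjusted p = 0.0138) and 5.73-fold for Scnn1g (edgeR adjusted p = 0.0123). Without normal replicate 3 the log2 fold changes were -0.70 (adjusted p = 0.111) and -1.20 (adjusted p = 0.0923), and no gene of the 10 was called. That library also had the highest share of counts on the ribosomal RNA gene Rn45s of all libraries, at 14.1%; the part of this in its ENaC levels was not tested.

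Cftr, the apical chloride channel (chr6:18170687-18322768, plus strand), fell with the absorptive genes in wild-type tumours. Wild-type males had 136, 137 and 220.45 CPM in normal colon and 32.3, 25.0 and 33.1 CPM in tumours, a 5.39-fold fall without overlap (edgeR adjusted p = 0.000222). Wild-type females had 250, 241 and 239 CPM against 18.1, 74.3 and 38.6 CPM, a 5.55-fold fall, also without overlap (edgeR adjusted p = 6.77e-05). Knock-in males had 89.2, 169 and 95.2 CPM in normal colon and 101, 104 and 61.9 CPM in tumours, and these overlapped (edgeR adjusted p = 0.444). Because Cftr fell less than Slc26a3, the ratio of Cftr to Slc26a3 per kilobase was 0.977 to 4.7 in the tumour libraries and 0.118 to 0.415 in the normal ones. Of the exonic bases of Cftr, 129 overlap the antisense gene Gm15592.

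Slc12a2, which supplies chloride for secretion at the basolateral membrane (chr18:57878678-57946821, plus strand), was not called in any comparison of tumour with normal colon. Wild-type males had 574, 773 and 512 CPM in normal colon and 482, 505 and 448 CPM in tumours, adjacent but not overlapping (log2 fold change -0.37, SE 0.157, 95% interval -0.70 to -0.04, adjusted p = 0.0721). Knock-in males had 770, 690.5 and 650 CPM against 730, 1143 and 950 CPM, and wild-type females 835, 699 and 651 CPM against 808, 894 and 929 CPM, with overlap in both. Their log2 fold changes were 0.42 (95% interval 0.09 to 0.75, adjusted p = 0.064) and 0.27 (95% interval -0.06 to 0.60, adjusted p = 0.168). The call in females depended on the scaling. Relative to the general epithelial genes, Slc12a2 rose by 0.91 on the log2 scale (edgeR adjusted p = 5.77e-05) and Slc9a3 by 2.50 (adjusted p = 0.0439). Under that scaling 66.3% of all genes were called in wild-type females and 10.1% were called lower, so most calls were rises. Relative to library totals Slc12a2 rose by 0.41 (edgeR adjusted p = 0.035). In knock-in males, scaling by library totals gave a rise of Slc12a2 of 0.45 (adjusted p = 0.0473). The mean share of Slc12a2 in the summed CPM per kilobase of the 10 genes was 10.5% in normal colon and 43.5% in tumours of wild-type females, and 17.7% and 28.1% in wild-type males. Slc9a3 made up 41.0% in wild-type male tumours and 4.60% in their normal colon. A share also rises where the other genes of the sum fall. In wild-type males the mean level of Slc12a2 was 619.5 CPM in normal colon and 478 CPM in tumours.

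**Figure D3:**
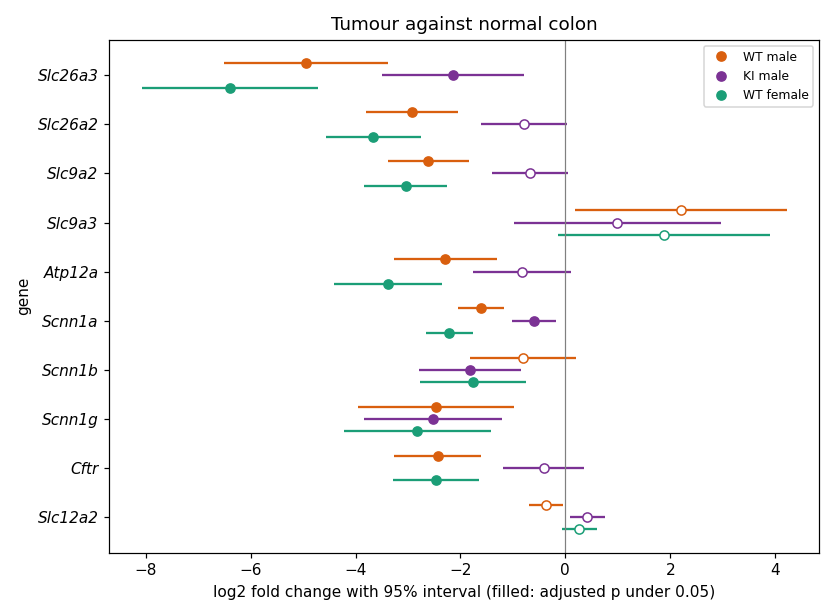
log2 fold change of each gene in tumour against normal colon for wild-type males, knock-in males and wild-type females; bars are 95% intervals and filled points have an edgeR adjusted p under 0.05. Slc26a3 has the lowest value in both wild-type comparisons (-4.95 in males and -6.40 in females), in knock-in males Scnn1g (-2.52) lies below Slc26a3 (-2.14), and the points for Slc9a3 lie above 0 and are open.

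**Figure D4:**
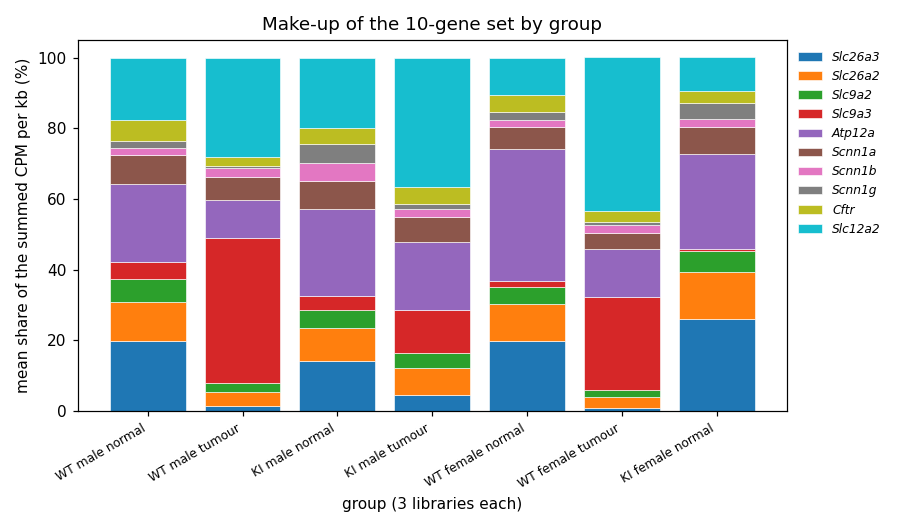
Stacked bars of each gene's mean share (%) of the summed CPM per kilobase of the 10 genes, by group of 3 libraries. A share depends on the levels of the other genes as well. Slc12a2 and Slc9a3 together fill most of the bar in wild-type tumours, while Slc26a3 shrinks from 19.7% to 1.57% in males and from 19.9% to 0.929% in females.

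The tissue make-up differed between tumour and normal libraries in the same comparisons. All 8 smooth muscle genes tested fell in each of the 3 comparisons, and their summed level was 2836 to 9533 CPM in normal colon and 188 to 742 CPM in tumours of wild-type males. It was 1975 to 4566 and 176 to 213 CPM in wild-type females, and 4518 to 8280 and 866 to 1002 CPM in knock-in males. Of all genes, 19.3%, 24.0% and 9.97% fell in wild-type males, wild-type females and knock-in males. Mature colonocyte markers (10 genes, 9 tested) fell in 7 cases in wild-type males, 8 in wild-type females and 6 in knock-in males, with none higher. Their sums in normal colon and tumours were 6563 to 9040 and 2527 to 3125 CPM in wild-type males, 9666 to 13920 and 2306 to 3600 CPM in wild-type females, and 4998 to 6904 and 4120 to 4715 CPM in knock-in males. General epithelial genes summed to 8009 to 10480 and 7068 to 7418 CPM, to 9985 to 11010 and 6016 to 7185 CPM, and to 7702 to 8611 and 7331 to 8698 CPM in the same order. No gene of these lists was at 0 in all libraries of a group. With counts scaled to the general epithelial genes, 7, 8 and 4 of the 10 transporter genes were lower in wild-type males, wild-type females and knock-in males, where 11.6%, 10.1% and 7.18% of all genes were. The part of tissue make-up in the transporter differences was not tested.

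Between knock-in and wild-type male tumours, 5 of the 10 genes (Slc12a2, Slc26a2, Cftr, Scnn1a and Slc9a2) were higher in the knock-in at an edgeR adjusted p under 0.05 and none lower, where 9.30% of all genes were higher and 14.5% differed in either direction. The median log2 difference was 1.33 for the 10 genes and 0.05 for all genes. In 9 of the 10 genes every knock-in tumour was above every wild-type tumour (20.3% of all genes were so placed), and Slc9a3 was the reverse (16.1% of all genes). Both genotypes' tumour levels are given above; this comparison shares its libraries with those of tumour and normal colon.

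Slc12a2 showed the difference with the smallest adjusted p, at 478 ± 28.8 CPM in wild-type and 941 ± 207 CPM in knock-in male tumours (SD, n = 3; log2 difference 0.98, SE 0.159, edgeR adjusted p = 0.0035). Slc26a2 was at 72.0 ± 11.0 and 226 ± 86.4 CPM (SD, n = 3; 3.14-fold, edgeR adjusted p = 0.017), and Cftr at 30.1 ± 4.43 and 88.9 ± 23.4 CPM (SD, n = 3; 2.92-fold, edgeR adjusted p = 0.0185). Absorptive and secretory genes were thus both among those higher. Scnn1a was at 41.1 ± 6.84 and 70.1 ± 16.2 CPM (SD, n = 3; 1.70-fold, edgeR adjusted p = 0.0229), and Slc9a2 at 28.3 ± 2.42 and 69.8 ± 16.8 CPM (SD, n = 3; 2.45-fold, edgeR adjusted p = 0.0276). Slc26a3 (log2 difference 2.02, SE 0.663, adjusted p = 0.0532) and Atp12a (1.36, SE 0.452, adjusted p = 0.0545) just missed the threshold. Scnn1g had a log2 difference of 1.59 (adjusted p = 0.13), Scnn1b of 0.40 (adjusted p = 0.591) and Slc9a3 of -1.17 (95% interval -3.13 to 0.80, adjusted p = 0.4).

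Only the call on Slc12a2 held with each of the 6 tumour libraries left out in turn. Those on Slc26a2 and Scnn1a were lost without replicate 1 or 2 of either genotype, that on Cftr without any wild-type replicate or knock-in replicate 2, and that on Slc9a2 in every case but knock-in replicate 3, with adjusted p between 0.0505 and 0.124 where a call was lost. Smooth muscle genes summed to 188 to 742 CPM in wild-type and 866 to 1002 CPM in knock-in male tumours, mature colonocyte markers to 2527 to 3125 and 4120 to 4715 CPM, and goblet cell markers to 3066 to 4267 and 5214 to 13150 CPM. No smooth muscle gene was called between these tumours (edgeR adjusted p from 0.0541 to 0.193). Of the mature colonocyte markers only Guca2a and Lypd8 were called, and of the goblet cell markers Muc2, Zg16 and Agr2, all higher in the knock-in. The part of these cell types in the difference was not tested.

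**Figure D5:**
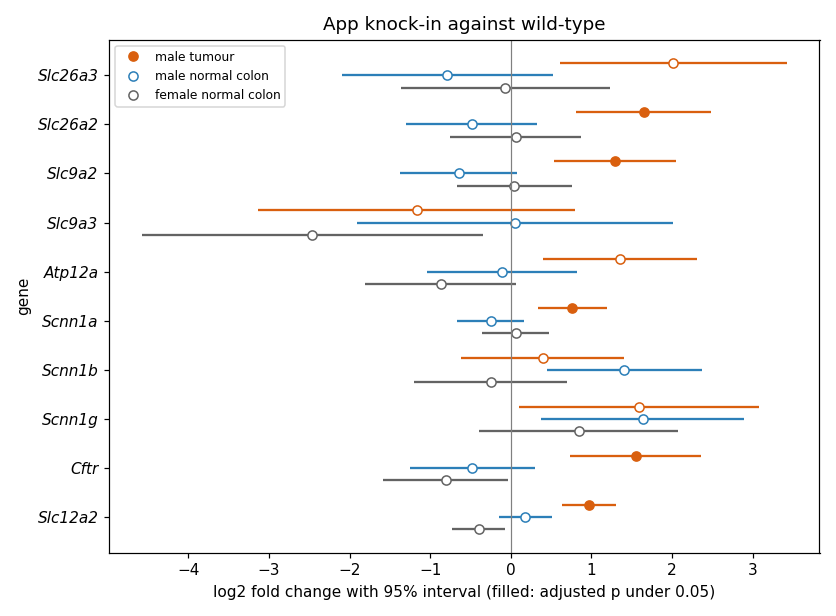
log2 fold change of each gene in knock-in against wild-type libraries, for male tumours and for male and female normal colon; bars are 95% intervals and filled points have an edgeR adjusted p under 0.05. The 5 filled points, from 0.77 for Scnn1a to 1.65 for Slc26a2, are all from male tumours.

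Whether the tumour effect itself differed between the genotypes was tested as an interaction over the 4 male groups. No gene of the 10 passed by edgeR, where 1.51% of all genes did, and 7 had an unadjusted p under 0.05, as had 25.2% of all genes. DESeq2 called 6 (8.32% of all genes) and limma voom 4 (7.49%), all with a weaker fall or a higher level in knock-in tumours. The largest edgeR values were for Slc26a3 (2.81 on the log2 scale, SE 0.902, adjusted p = 0.0872), Slc26a2 (2.13, SE 0.552, adjusted p = 0.0556), Cftr (2.02, SE 0.527, adjusted p = 0.0561) and Slc9a2 (1.94, SE 0.493, adjusted p = 0.0548). Scnn1g (-0.05, 95% interval -2.09 to 1.99) and Scnn1b (-1.01, 95% interval -2.40 to 0.38) showed no such direction. Between the sexes in wild-type mice, the difference in tumour effect passed in none of the 10 genes by edgeR or DESeq2 and in 2 by limma voom, where 1.12%, 3.62% and 9.21% of all genes passed. At an unadjusted p under 0.05 there were 2 of the 10, against 13.8% of all genes. The value for Slc26a3 was -1.45 (95% interval -3.42 to 0.52) and that for Slc12a2 0.64 (95% interval 0.17 to 1.11, edgeR adjusted p = 0.177).

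In normal colon no gene of the set was called between the genotypes in the edgeR test. In males 2 of 10 had an unadjusted p under 0.05 (3.34% of all genes had), none was called by DESeq2 or limma voom, and 0.0126% of all genes were called by edgeR. Those 2 were Scnn1b (log2 difference 1.41, SE 0.455) and Scnn1g (1.64, SE 0.595), the genes of the high replicate 3 described above, and their adjusted p was 1. In females none was called by edgeR, where 16.0% of all genes were, and 3 of 10 had an unadjusted p under 0.05, near the 31.2% of all genes that had. DESeq2 called 1 (19.3% of all genes) and limma voom 3 (28.3%). The 3 had negative estimates: Slc9a3 (log2 difference -2.46, 95% interval -4.58 to -0.34, edgeR adjusted p = 0.106), Cftr (-0.80, 95% interval -1.58 to -0.03, adjusted p = 0.145) and Slc12a2 (-0.40, 95% interval -0.73 to -0.07, adjusted p = 0.0906). Cftr was at 131, 122 and 164 CPM in knock-in and 250, 241 and 239 CPM in wild-type female normal colon, and Slc12a2 at 562, 506 and 588 against 835, 699 and 651 CPM. Both were below without overlap, and 2 of 10 is near the 18.2% of all genes so placed. Scnn1g was above without overlap, at 84.3, 82.5 and 46.3 CPM in knock-in and 30.6, 45.6 and 43.4 CPM in wild-type females. Its log2 difference was 0.84 (edgeR adjusted p = 0.346). In the same libraries, smooth muscle genes summed to 6815 to 9563 CPM in knock-in and 1975 to 4566 CPM in wild-type females, and goblet cell markers to 10560 to 11550 against 24530 to 49610 CPM. Fibroblast markers summed to 2172 to 2746 against 1126 to 1369 CPM and endothelial markers to 94.5 to 103 against 39.0 to 65.8 CPM, and the part of these cell types was not tested. The intervals for Slc26a3 (-1.36 to 1.23), Slc26a2 (-0.75 to 0.87) and Scnn1a (-0.36 to 0.48) leave room for differences of either sign. The difference in genotype effect between the sexes passed in none of the 10 genes by edgeR, where 2.54% of all genes passed. DESeq2 called none (5.79% of all genes) and limma voom 1 (6.89%), and 2 of the 10 had an unadjusted p under 0.05, against 17.7% of all genes.

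Between the sexes, Atp12a was higher in normal colon of wild-type females than of wild-type males (1049 ± 467.5 against 346 ± 226 CPM, SD, n = 3; log2 difference 1.60, SE 0.449, edgeR adjusted p = 0.0248), although the groups overlapped. It was the only one of the 10 called there by edgeR, where 5.74% of all genes were higher and 15.9% differed. Limma voom called 6 of the 10 there, and 33.7% of all genes. The edgeR call on Atp12a was lost without male replicate 1 (adjusted p = 0.108) or 2 (0.09) and without female replicate 1 (0.0742) or 2 (0.115). In the same female and male normal libraries, goblet cell markers summed to 24530 to 49610 against 12090 to 24660 CPM, crypt progenitor markers to 208 to 242 against 363 to 704 CPM and smooth muscle genes to 1975 to 4566 against 2836 to 9533 CPM. Fibroblast markers summed to 1126 to 1369 against 2368 to 2659 CPM and endothelial markers to 39.0 to 65.8 against 84.1 to 126 CPM, and Rn45s took 2.84% to 3.18% against 4.9% to 8.26% of the counts. Their part in the Atp12a difference was not tested. Slc12a2 was the only one called between wild-type female and male tumours (877 ± 62.1 against 478 ± 28.8 CPM, SD, n = 3; 1.83-fold higher, edgeR adjusted p = 0.0177), where 0.402% of all genes were higher and 0.860% differed. It was lost without wild-type male tumour replicate 2 (adjusted p = 0.0659) or 3 (0.115), and without wild-type female tumour replicate 2 (0.0589) or 3 (0.0687). It was also lost with the late library numbers (152 and above, which those 2 female replicates carry) as a covariate (log2 difference 0.81, adjusted p = 0.0543). Between knock-in females and males, none of the 10 was called in normal colon by edgeR (0.584% of all genes were). DESeq2 called 2 (3.73%) and limma voom 4 (4.38%), and 6 had an unadjusted p under 0.05 (15.3% of all genes). Of those 6, Slc26a3 (log2 difference 1.54), Slc26a2 (1.17), Slc9a2 (0.98) and Scnn1a (0.65) were higher in females. Slc9a3 (-2.58) and Slc12a2 (-0.35) were lower, and the edgeR adjusted p of the 6 ranged from 0.123 to 0.294.

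Partners of apical salt absorption (bicarbonate transporters, exchanger scaffolds and cofactors, 14 genes tested) fell in 6 cases in wild-type male tumours, 9 in wild-type female tumours and 3 in knock-in male tumours, with none higher. Of all genes, 19.3%, 24.0% and 9.97% fell in these comparisons and 35.7%, 49.1% and 20.4% changed in either direction, so that the 3 of 14 changed in knock-in males are near that last share. Their median log2 fold change was -0.30, -0.46 and -0.31. Slc4a4, the basolateral sodium bicarbonate cotransporter, fell in all 3: from 291 ± 101 to 44.3 ± 6.02 CPM in wild-type males, from 303 ± 77.6 to 52.4 ± 15.4 CPM in wild-type females and from 182 ± 33.9 to 77.6 ± 6.32 CPM in knock-in males (SD, n = 3; edgeR adjusted p = 3.83e-06, 7.43e-07 and 0.00369). Chp2, a cofactor of sodium-proton exchangers, fell by 2.18 on the log2 scale in wild-type males (edgeR adjusted p = 0.00198). The carbonic anhydrase Car2 fell by 2.50 in wild-type females (edgeR adjusted p = 0.000139), and the exchanger scaffold Slc9a3r2 by 0.60 in knock-in males (edgeR adjusted p = 0.0415). In knock-in against wild-type male tumours 2 genes were higher and none lower: Slc4a7 (1.03, edgeR adjusted p = 0.00742) and Slc4a4 (0.80, edgeR adjusted p = 0.0383), both sodium bicarbonate cotransporters; 2 of 14 is near the 14.5% of all genes that differed. In female normal colon Slc9a3r2 (1.43) and Slc4a4 (0.83) were higher and Slc4a7 (-1.09) lower in the knock-in, where 16.0% of all genes differed.

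Regulators of ENaC (12 genes) fell in 8 cases and rose in 1 in wild-type male tumours, fell in 9 and rose in 1 in wild-type female tumours, and fell in 6 in knock-in male tumours with none higher. All genes fell in 19.3%, 24.0% and 9.97% of cases and changed in 35.7%, 49.1% and 20.4%. Medians of the list were -0.86, -1.06 and -0.55. Hsd11b2, which inactivates glucocorticoids so that aldosterone can act, fell from 353.5 ± 88.6 to 47.5 ± 12.0 CPM in wild-type males and from 527 ± 127 to 53.4 ± 30.2 CPM in wild-type females (SD, n = 3; edgeR adjusted p = 3.73e-05 and 3.48e-06). In knock-in males it fell from 377 ± 62.2 to 114.5 ± 46.3 CPM (SD, n = 3; edgeR adjusted p = 0.00501). Nr3c2, the mineralocorticoid receptor, fell by 2.19 on the log2 scale in wild-type males and by 2.62 in wild-type females (edgeR adjusted p = 5.84e-06 and 1.80e-07). Usp2, a deubiquitinase that stabilises ENaC, fell by 1.19 in knock-in males (edgeR adjusted p = 0.00486). The rising gene in both wild-type comparisons was Furin, a protease that cleaves and activates ENaC (0.75 and 1.02, edgeR adjusted p = 0.00241 and 8.87e-05). Knock-in male tumours were higher than wild-type ones in 3 regulators and lower in 1, with Hsd11b2 (1.26), the corticosteroid-induced Tsc22d3 (1.11) and the protease St14 (-0.51) leading, where 14.5% of all genes differed. Knock-in female normal colon was higher in 3 and lower in 2, led by the aldosterone-induced kinase Sgk1 (153 ± 17.0 CPM in wild-type and 375 ± 173 CPM in knock-in, SD, n = 3; edgeR adjusted p = 0.0175) and Usp2 (1.01), with the proteases St14 (-0.47) and Tmprss4 (-0.38) lower, where 16.0% of all genes differed.

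The sodium pump and potassium transport list (15 genes) had 5 lower and 1 higher in wild-type male tumours, 6 lower and 3 higher in wild-type female tumours and 4 lower and 1 higher in knock-in male tumours, with medians of -0.47, -0.55 and -0.23. These 6, 9 and 5 of 15 are not far from the 35.7%, 49.1% and 20.4% of all genes that changed in either direction. Kcnma1, the large-conductance potassium channel of colonic potassium secretion, fell from 74.6 ± 3.03 to 12.5 ± 2.54 CPM in wild-type males (SD, n = 3; edgeR adjusted p = 2.35e-07). It fell by 2.02 in wild-type females and 1.07 in knock-in males on the log2 scale, and the potassium channel Kcnk5 fell by 2.27, 2.37 and 1.02 in wild-type males, wild-type females and knock-in males. Smooth muscle genes fell in the same comparisons, and the part of tissue make-up in the Kcnma1 differences was not tested. Slc12a4, a potassium-chloride cotransporter, rose by 0.89 in wild-type males and 2.29 in wild-type females (edgeR adjusted p = 0.000405 and 7.26e-08). Fxyd3, a pump modulator, rose by 1.71 in wild-type females, and the pump subunit Atp1b3 by 0.86 in knock-in males. Between the male tumours 3 were higher and 1 lower in the knock-in: Kcnma1 (1.70, edgeR adjusted p = 0.000158) and Kcnk5 (0.94) led those higher, and Slc12a4 (-0.71) was the lower one, where 14.5% of all genes differed. In female normal colon 2 were higher, Slc12a4 (1.54) and the potassium channel subunit Kcnq1 (0.77), and 2 lower, Kcne3 (-0.69), the partner of Kcnq1, and Kcnk1 (-0.57), where 16.0% of all genes differed.

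Chloride secretion partners (17 genes) went both ways: 7 lower and 4 higher in wild-type male tumours, 8 and 5 in wild-type female tumours, and 5 and 1 in knock-in male tumours, with medians of -0.58, -0.30 and -0.19. Of all genes, 35.7%, 49.1% and 20.4% changed in either direction. Best2, an anion channel of goblet cells, fell in all 3, by 2.83, 3.5 and 2.09 on the log2 scale (edgeR adjusted p = 6.76e-05, 3.61e-06 and 0.00256). Gucy2c, the guanylin receptor, fell by 1.75 in wild-type males, and the chloride channel Clcn2 by 1.86 in wild-type females and 0.90 in knock-in males. Prkg2, the cGMP-dependent kinase that acts on Cftr, rose in wild-type tumours: from 20.6 ± 12.3 to 89.3 ± 20.4 CPM in males (SD, n = 3; edgeR adjusted p = 0.0253) and from 0.835 ± 0.482 to 106 ± 8.43 CPM in females (SD, n = 3; edgeR adjusted p = 3.04e-05). Slc26a9, an epithelial chloride transporter of the Slc26 family, rose from 2.81 ± 2.47 to 16.9 ± 3.21 CPM in males (SD, n = 3; edgeR adjusted p = 0.00525). In females it was at most 0.254 CPM in normal colon, with 0 in a library, and 15.4 to 20.2 CPM in tumours (edgeR adjusted p = 1.47e-05). Clcn3 rose by 0.71 in knock-in males. Between the male tumours 3 were higher in the knock-in and none lower, led by Best2 (1.55) and Gucy2c (1.10), where 3 of 17 is near the 14.5% of all genes that differed. In female normal colon 3 were lower and none higher, led by Clca1 (-1.54), a product of goblet cells, and Clcn2 (-0.48), a count near the 16.0% of all genes. Goblet cell markers fell in 6 of 6 cases in both wild-type tumour comparisons, where 19.3% and 24.0% of all genes fell. These markers were lower in 5 of 6 cases in knock-in female normal colon, where 16.0% of all genes differed. The part of goblet cells in the Best2 and Clca1 differences was not tested.

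Across the 21 libraries, Slc26a3, Slc26a2, Slc9a2, Scnn1a, Cftr and Atp12a moved together, with Pearson's r of log2 CPM between 0.85 and 0.98 in the 15 pairs of these 6 genes. Scnn1b and Scnn1g had r = 0.92 with each other. Slc9a3 had r between -0.79 and -0.46 with the genes other than Slc12a2, and Slc12a2 between -0.20 and 0.05 with those other than Slc9a3. The libraries share the contrast of tumour and normal colon, so these values describe that contrast. The 5 genes most like Slc26a3 among 11544 were Car4 (r = 0.989), Aqp8 (0.988), Selenbp1 (0.987), Abat (0.986) and Cryl1 (0.983); Car4, a surface carbonic anhydrase, and Aqp8, a water channel, are also on the mature colonocyte list. Those most like Scnn1b were Hif3a (0.911), Ocel1 (0.909), Esrra (0.882), Fkbp5 (0.88) and Tmem82 (0.873), and those most like Slc12a2 were Xkr4 (0.86), Tex30 (0.834), Tram1 (0.808), Gxylt1 (0.808) and Sec11c (0.799).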

How the data were processed

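The authors deposited a table of read counts per gene for the 21 libraries; per the submitters' processing notes, Trimmomatic, HISAT2, featureCounts and DESeq2 were used with the build mm10, with versions and strand setting not given in the sources used here. A deposited table of the authors' own normalised values, with 21 columns of libraries, was not used. The counts were fitted with edgeR 4.0.16 in R 4.3.3 (limma 3.58.1): filter by group, trimmed-mean scaling, 1 coefficient per group over all 21 libraries, robust quasi-likelihood tests, Benjamini-Hochberg over 15936 genes, threshold 0.05. The 12 comparisons were 9 of 2 groups and 3 interactions. CPM divided by kilobases of GENCODE M21 exon (GRCm38, the same assembly as mm10) gives levels per kilobase, and log2 CPM used a prior count of 2. The scripts were tested on simulated data.

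Named partner genes were up to 2 called genes per list and direction with the largest change and a mean of at least 50 counts in a group; genes most like a gene were the 5 with the highest r among those with a mean of at least 5 CPM. The genes and lists were chosen with earlier results of these data known. Alternatives were DESeq2 1.42.0 (test and size factors), limma voom, library totals, scaling to 8 epithelial genes, no filter, only the compared groups, a replicate block, library numbers from 152 as a covariate, and each library left out. Labels do not tie replicate numbers to animals. Same-numbered tumour and normal libraries deviated together in wild-type males (r = 0.17, 0.17 and 0.21). In no other comparison did every number do so. A single same-numbered pair reached r = 0.46 between knock-in and wild-type male normal colon, which cannot share an animal. Such values therefore do not establish pairing, and the main fit used none. Each of the 10 genes had at least 8 counts in each library, above the floor of 3 counts.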

Additional observations from a re-analysis of the deposited data

How the results depend on the processing

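Over 1950 refitted values of the 10 genes, 1826 stayed on their side of the threshold, 48 lost and 76 gained a call, and none of the called values changed sign. The counts of called genes that moved by over 1.5 times were as follows, and the cause was not tested. In tumour against normal colon of knock-in males the count fell from 4 to 2 with the replicate block or the late library numbers as a covariate and to 1 with only the compared groups. With DESeq2's test the count went from 0 to 1 (genotype, female normal), 2 (sex, knock-in normal) and 6 (tumour effect by genotype). With limma voom it went from 0 to 3, 4 and 4 in these. Limma voom also moved the count from 1 to 6 for sex in wild-type normal colon, where it called 33.7% of all genes. It gave 2 in place of 0 for the tumour effect by sex and 1 in place of 0 for the genotype effect by sex. Only the compared groups gave 2 (genotype, female normal), 2 (sex, wild-type normal) and 4 (sex, knock-in normal). Scaling to epithelial genes gave 1 for sex in knock-in normal colon (4.02% of all genes) and 1 for the tumour effect by sex (5.32%). The late library covariate gave 0 for sex in wild-type tumours. Shares of all genes are not given for the fits of only the compared groups, the replicate block, the late library covariate or left-out libraries. Those counts describe only how stable the calls were.

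Without 1 library at a time, the counts were 6 to 8 in wild-type males, 8 to 9 in wild-type females, 0 to 4 in knock-in males, 1 to 6 between male tumours, 0 to 3 and 0 to 1 for sex in wild-type normal colon and tumours, 0 to 5 for the tumour effect by genotype (5 without knock-in male normal replicate 2, 4 without knock-in male tumour replicate 3 and 3 without wild-type male normal replicate 2), 0 to 1 for the other 2 interactions, and 0 in the remaining comparisons. In knock-in males the Slc26a3 call was lost without normal replicate 2 or 3 or tumour replicate 2 or 3, and that on Scnn1a without any normal replicate or tumour replicate 1 or 3 (adjusted p from 0.0557 to 0.166). In wild-type males Scnn1g was lost without tumour replicate 1 (adjusted p = 0.0548). With the replicate block, 7 genes were called in wild-type males, with no call changed, and 4 in place of 5 between male tumours, where numbers do not pair libraries. Every library correlated best with its own number in wild-type males, but not in the other comparisons. Scaling to epithelial genes shifted the median of all genes by 0.306 (wild-type males) and 0.652 (wild-type females), and the share of calls that were higher from 46.0% to 73.4% and from 51.0% to 84.7%. Depths of 3414123 counts upward limit Scnn1g in tumours most, at 8 counts in a library.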
